A study of Mus musculus with 7 samples.

Results

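The genes described here are 8 Six-, Eya- and Pax-family genes of the pharyngeal arches and pouches, Six2, Six4, Eya1, Eya2, Eya4, Pax1, Pax3 and Pax9. They were taken by symbol from a table of read counts for 27179 genes, and all 8 were found by their gene identifiers. The counts come from chromatin immunoprecipitation and sequencing (ChIP-seq) with an anti-V5 antibody in the first and the second pharyngeal arches of mouse embryos (C57BL/6, E10.5). In the tagged group both copies of Moz (Kat6a), a histone lysine acetyltransferase gene, had the Flag-V5-BIO sequence added in frame at the end of the coding sequence, an allele with which homozygous mice are viable, healthy and fertile according to the design notes. The wild-type group had no tag and served as the negative control of the same immunoprecipitation. There were 3 ChIP libraries of each group, called V5 and wild type below, and 1 input library from tagged arches that was not immunoprecipitated. Whether replicates came from separate embryos or pools is not stated, so the p-values compare the groups only with the differences among replicates, whose origin may be technical.

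SIX-family proteins are homeodomain transcription factors, and EYA proteins are their co-activators, which bind these proteins rather than DNA and also act as phosphatases. PAX proteins bind DNA through a paired domain. These families work together in many organs. In the pharyngeal region Pax1 and Pax9 mark the pouch endoderm that gives rise to the thymus and parathyroid glands, Pax9 is also needed in jaw and tooth mesenchyme, Eya1 is needed for ear, kidney, thymus and parathyroid, Pax3 is active in neural crest, and Six2 is active in arch mesenchyme and in kidney progenitors. A ChIP count of a gene is the number of DNA fragments recovered from it and not its expression, so the tissue cannot be checked from these values.

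The promoters shown are those of the pair of genes whose V5 and wild-type values did not overlap, Pax9 and Six2, of Pax1, the closest relative of Pax9 among the 8, and of Six4, whose start lies inside another gene. Each runs from 250 bases before to 30 bases after the start site in RefSeq (GRCm38.p6), 5′ to 3′ on the strand of the gene, and capitals mark CpG dinucleotides. The windows are chr12:56695221-56695500 on the plus strand for Pax9, chr2:147364744-147365023 on the plus strand for Pax1, chr17:85688225-85688504 on the minus strand for Six2 and chr12:73113216-73113495 on the minus strand for Six4.
Pax9: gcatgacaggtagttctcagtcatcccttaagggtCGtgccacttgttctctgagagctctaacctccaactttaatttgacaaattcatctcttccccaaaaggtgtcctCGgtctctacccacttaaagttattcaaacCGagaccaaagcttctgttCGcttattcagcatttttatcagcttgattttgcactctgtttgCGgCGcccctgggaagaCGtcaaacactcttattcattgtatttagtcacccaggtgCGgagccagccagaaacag
Pax1: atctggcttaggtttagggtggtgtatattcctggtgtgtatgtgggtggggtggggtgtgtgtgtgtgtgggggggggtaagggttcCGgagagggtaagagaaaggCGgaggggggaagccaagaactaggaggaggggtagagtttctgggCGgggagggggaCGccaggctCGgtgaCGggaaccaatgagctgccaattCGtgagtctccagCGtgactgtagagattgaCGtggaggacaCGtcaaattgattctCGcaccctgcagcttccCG
Six2: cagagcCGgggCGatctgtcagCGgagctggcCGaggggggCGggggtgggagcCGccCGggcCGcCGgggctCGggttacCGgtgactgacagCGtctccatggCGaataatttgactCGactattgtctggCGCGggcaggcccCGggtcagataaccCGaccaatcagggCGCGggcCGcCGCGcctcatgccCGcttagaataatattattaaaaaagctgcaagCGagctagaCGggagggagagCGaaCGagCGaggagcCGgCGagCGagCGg
Six4: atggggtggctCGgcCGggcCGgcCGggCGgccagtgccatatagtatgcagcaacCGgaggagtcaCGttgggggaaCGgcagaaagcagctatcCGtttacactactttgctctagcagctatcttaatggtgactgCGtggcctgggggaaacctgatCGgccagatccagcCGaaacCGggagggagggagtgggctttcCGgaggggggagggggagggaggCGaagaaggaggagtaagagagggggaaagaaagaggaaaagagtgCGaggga

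The Six2 window held 33 CpG and 66.1% G and C, and 6.54% of the 32851 promoter windows of the same length held at least as many CpG. The printed Six4 window held 16 CpG (30.3% of windows held at least as many), the Pax1 window 12 (37.5%) and the Pax9 window 8 (46.6%), where the median window held 6. Six4 has a second start in the RefSeq table, at 73113425, whose window held 15 CpG (32.1%). Eya4 has 2 windows there, with 27 and 36 CpG, and Eya1, Eya2 and Pax3 were not matched there. The motif searched was CG, which reads the same on both strands. Among the windows of these 5 genes, those of Six2 and Eya4 were thus the richest in CpG, and the Pax9 window was the poorest. This order holds for these windows only. The Six2 start site, at 85688254, is the 5′ end of the RefSeq span of its gene. The start sites used for Pax9, Pax1, Six4 and Eya4 lie inside the spans. For Pax9 the site is at 56695471 and the span begins at 56691693. CpG at the outer ends of these spans was not counted.

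The part of each gene that was counted differed. The deposited length equalled the RefSeq span for Pax3 (GeneID 18505, chromosome 1, 78101267 to 78197136) and was 99.4% of it for Eya1 (GeneID 14048, chromosome 1, 14168953 to 14311035) and 99.1% for Eya4 (GeneID 14051, chromosome 10, 23102962 to 23350838), so exons and introns appear to have been counted together. It was 65.8% for Eya2 (GeneID 14049, chromosome 2, 165595028 to 165771727), 73.8% for Pax9 (GeneID 18511, chromosome 12, 56691693 to 56712824) and 90.0% for Six4 (GeneID 20474, chromosome 12, 73099609 to 73114031). For Pax1 (GeneID 18503, chromosome 2, 147361930 to 147375049) the deposited 10056 bp equals the distance from the start site of the printed promoter to the end of the gene. For Pax9 that distance was 17354 bp and the deposited length 15592 bp, so the printed Pax9 window may lie outside the counted part. For Six2 (GeneID 20472, chromosome 17, 85662736 to 85688254) only 3987 bp of a 25519 bp span were counted. DNA upstream of the counted start is not in these values, and a signal at the start site weighs little in the total of a long gene. By RefSeq spans Six4 overlaps Mnat1 by 1847 bp, a stretch that contains the printed Six4 window, and Pax9 overlaps Slc25a21 by 191 bp. The printed Six4 start lies 13637 bp from the end of the gene, and 12987 bp were counted, so this window too may lie outside the counted part. Whether the counted parts overlap is not known, and reads in these stretches may have been left uncounted or unassigned.

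Totals ranged from 806648 to 3286602 counts in the V5 libraries and from 1288732 to 2504595 in the wild-type libraries, and the input held 3488745. V5 replicate 1 was the shallowest, and 3 counts there, the upper limit that a count of 0 allows, are 3.72 CPM (counts per 1000000 counts of the library), against 0.860 in the input. Wild-type replicate 2 stood apart by 2.77% of its counts on chromosome X, where the other 6 libraries had 3.94% to 4.51%. It also had 0.0503% on chromosome Y, where the other 6 had 0.0101% to 0.0314%. Pairs of V5 libraries differed by a chi-square per degree of freedom of 9.45 to 10.2 over genes, and pairs of wild-type libraries by 4.93 to 5.46. Summed markers of endothelium had 258 to 293 CPM in V5 and 223 to 244 in wild type, and no share over all genes covers such sums. Of these 5 genes 4 leaned to V5 and Kdr to wild type, and Tek alone averaged 135 and 108 CPM. Summed markers of epithelium had 64.2 to 92.2 CPM in V5 and 47.5 to 85.1 in wild type. Those of blood had 15.2 to 28.1 and 5.27 to 19.4, with 0 counts of Hba-a1 and Hbb-bs in all libraries. Those of neurons had 18.6 to 59.7 and 48.3 to 75.3, and genes taken as silent in arches 1.24 to 13.1 and 3.88 to 21.1. As ChIP counts, these sums are no measure of cell types. The part of these differences between libraries in the results below was not tested.

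The comparison of V5 with wild type asks where tagged MOZ was recovered above the background of the antibody. None of the 8 genes passed. With edgeR's quasi-likelihood test, 0 of the 6 genes with enough counts had an adjusted p under 0.05, and 0.0% of the 14575 genes tested did. At an unadjusted p under 0.05 there was 1 of the 6, Pax9, where 4.19% of all tested genes passed that mark. DESeq2, limma-voom and edgeR's likelihood ratio test called 0 of the 8, 6 and 6 genes they fitted. At an unadjusted p under 0.05 they had 1, 0 and 1 (4.29% of all genes with DESeq2). Of all 14575 tested genes, limma-voom put 348 under that mark and the likelihood ratio test 739. Of the 6 tested genes 5 leaned to V5, and their median log2 fold change was 0.17, and over all tested genes 52.5% were positive with a median of 0.03. Six2 and Pax1 were below the filter on low counts and have only an exact permutation test, whose smallest p for 3 against 3 libraries is 0.1.

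**Figure D1:**
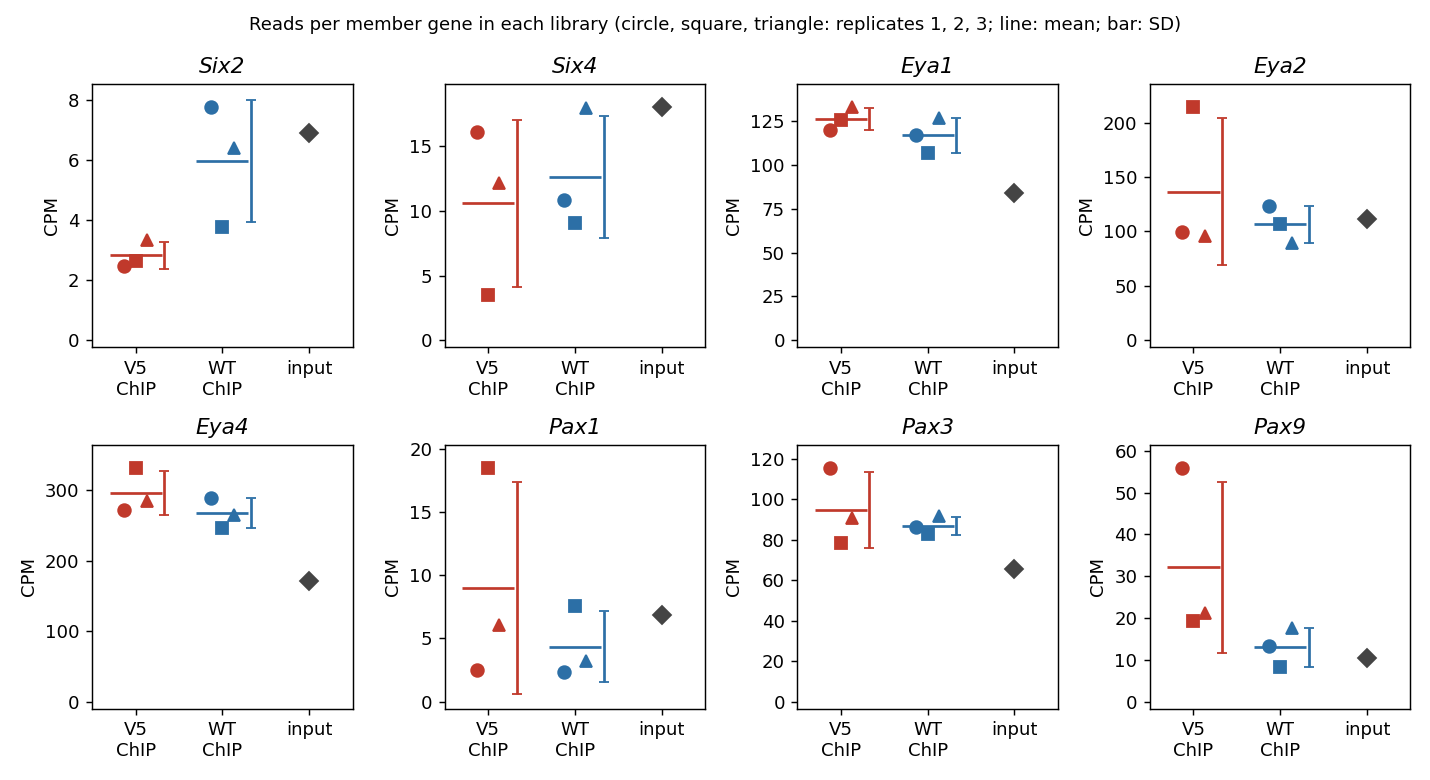
CPM of each of the 8 genes (linear axis) in the V5 ChIP, wild-type (WT) ChIP and input libraries; circles, squares and triangles are replicates 1, 2 and 3, lines are means and bars are SD. V5 replicate 1 stands high in Pax9, V5 replicate 2 stands high in Eya2 and Pax1, and the input lies below all ChIP libraries in Eya1, Eya4 and Pax3.

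Among the SIX-family transcription factor genes, Six2 was the gene whose V5 libraries all lay below wild type. V5 replicates 1 to 3 held 2, 3 and 11 counts, the wild-type replicates 10, 5 and 16, and the input 24. In CPM the V5 values were 2.48, 2.64 and 3.35, the wild-type values 7.76, 3.77 and 6.39, and the input value 6.88. This separation without overlap was seen in 5.07% of the 16736 genes with at least 70 counts over the 7 libraries. The gap was narrow beside the counting error. V5 replicate 3, at 3.35 CPM, had an exact Poisson 95% interval of 1.67 to 5.99 CPM, and wild-type replicate 2, at 3.77 CPM, one of 1.22 to 8.79. V5 averaged 2.82 ± 0.463 CPM and wild type 5.97 ± 2.03 (SD, n = 3), a ratio of 0.472 (two-sided exact permutation p = 0.1).

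Six4, which acts in muscle and sensory precursors, did not separate the groups. V5 held 13, 4 and 40 counts, wild type 14, 12 and 45, and the input 63. V5 replicate 2, at 3.51 CPM, was the lowest of all libraries, and the other V5 libraries, at 16.1 and 12.2, lay among the wild-type values of 10.9, 9.04 and 18.0. The edgeR estimate of the log2 fold change was -0.23 (SE 0.74, adjusted p = 0.996). The 95% interval ran from -1.77 to 1.31, so neither a 2-fold loss nor a 2-fold gain over the counted part could be told from no difference at this depth. Its sign changed when V5 replicate 2 (0.16) or wild-type replicate 3 (0.11) was left out. Six4 was also the gene of the 8 that lay below the input in all 6 ChIP libraries, which 15.4% of genes with at least 70 counts did.

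Among the EYA co-activator genes, Eya1 had groups that overlapped. Its V5 libraries held 97, 143 and 438 counts, the wild-type libraries 151, 142 and 318, and the input 294. V5 averaged 126 ± 6.54 CPM and wild type 117 ± 9.998 (SD, n = 3). The V5 libraries were thus as close to each other as the wild-type libraries were. On the log2 scale edgeR put V5 at 0.14 over wild type (SE 0.23, adjusted p = 0.989), and the upper end of its 95% interval is a 1.54-fold gain.

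Eya4, known for its part in hearing, had the most reads of the 8 genes. V5 held 220, 377 and 937 counts, wild type 373, 328 and 664, and the input 596. V5 averaged 296 ± 30.8 CPM and wild type 267 ± 21.2 (SD, n = 3), with overlap between the groups. Its estimate of 0.18 on the log2 scale (SE 0.17, adjusted p = 0.979 in edgeR) had the narrowest interval of the 6, from -0.16 to 0.52, or at most a 1.44-fold gain over the whole gene.

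In Eya2 the value rested on 1 library. V5 held 80, 244 and 316 counts, wild type 159, 142 and 224, and the input 389. V5 replicate 2 reached 214 CPM, with an exact Poisson 95% interval of 188 to 243, and the other 5 ChIP libraries lay between 89.4 and 123 CPM. With all libraries the log2 estimate of edgeR was 0.39 (SE 0.29, adjusted p = 0.978), and leaving out V5 replicate 2 gave -0.090. The high library was thus outside the others by more than counting error, while the remaining V5 libraries, at 99.2 and 96.1 CPM, lay inside the wild-type range.

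**Figure D2:**
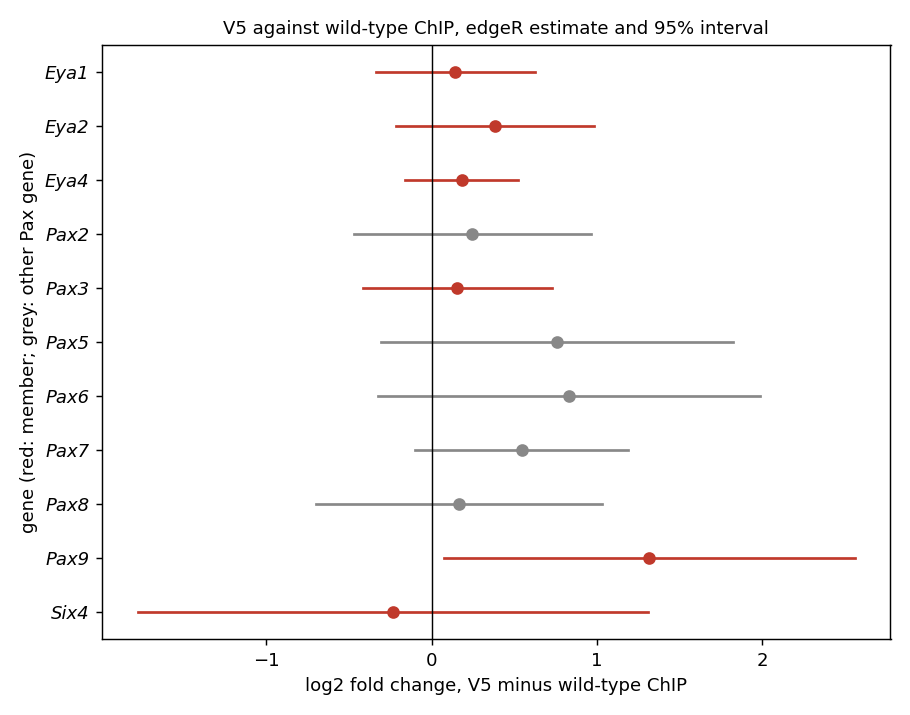
Estimated log2 fold change of V5 over wild-type ChIP (horizontal axis) with its 95% interval for the 11 genes with enough counts among the 8 and a list of other Pax genes; red marks the genes described here and grey the other Pax genes. The intervals narrow from Six4 (-1.77 to 1.31) to Eya4 (-0.16 to 0.52), and Pax9 (0.07 to 2.56) is the gene whose interval does not reach 0 before correction for the number of genes.

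Among the PAX transcription factor genes, Pax9 had the largest difference and the smallest p of the 6 tested genes. V5 held 45, 22 and 70 counts, wild type 17, 11 and 44, and the input 36. In CPM these are 55.8, 19.3 and 21.3 against 13.2, 8.29 and 17.6, beside 10.3 for the input. All V5 libraries lay above all wild-type libraries, as in 4.83% of the tested genes. V5 replicate 1, the shallowest library, stood far above the rest. V5 replicates 2 and 3 were close to wild-type replicate 3: their exact Poisson 95% intervals of 12.1 to 29.3 and 16.6 to 26.9 CPM overlap its interval of 12.8 to 23.6. V5 averaged 32.1 ± 20.5 CPM and wild type 13.015 ± 4.64 (SD, n = 3). Its edgeR estimate, a log2 difference of 1.32 (SE 0.60), had an unadjusted p of 0.0381 and an adjusted p of 0.978. Without V5 replicate 1 it was 0.61, and over the alternatives the adjusted p ranged from 0.456 to 1.00.

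Pax1, which shares the pouch endoderm with Pax9 and is needed for the vertebral column, had groups that overlapped. V5 held 2, 21 and 20 counts, wild type 3, 10 and 8, and the input 24. V5 replicate 2 was high at 18.4 CPM, whereas V5 replicate 1, the high library in Pax9, was at 2.48, next to the lowest wild-type value of 2.33. The ratio of the means was 2.07, from 9.00 ± 8.37 and 4.35 ± 2.79 CPM (SD, n = 3, two-sided exact permutation p = 0.6). On the log2 scale this ratio is 1.05. Leaving out V5 replicate 2 gave -0.023, and leaving out wild-type replicate 2 gave 1.71. The long non-coding RNA gene AI646519, which overlaps the RefSeq span of Pax1 by 864 bp outside its deposited length, held 0, 0 and 1 counts in the V5 libraries against 5, 6 and 6, with 1 for the input. With 19 counts over the 7 libraries it was below the filter, and no share over all genes covers counts this low. In Mnat1, Slc25a21 and Nkx2-9, which overlap or lie next to Six4 or Pax9, the V5 and wild-type values overlapped.

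Pax3 is a regulator of neural crest and muscle precursors, and its gene spans 95870 bp. V5 held 93, 89 and 298 counts, wild type 111, 110 and 230, and the input 228. V5 replicate 1 was the highest library at 115 CPM and V5 replicate 2 the lowest ChIP library at 78.2, with all wild-type libraries between 82.9 and 91.8. In edgeR the difference was 0.15 on the log2 scale (SE 0.28, adjusted p = 0.990), with an upper limit of a 1.65-fold gain, and it turned to -0.058 without V5 replicate 1.

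The intervals divide the 8 genes by how much can be said of them. For 4 of the 6 tested genes, Eya1, Eya2, Eya4 and Pax3, the upper end of the 95% interval lay below a 2-fold gain over the counted span. For Six4 and Pax9 it did not, and Six2 and Pax1 rest on 47 and 64 counts over the 6 ChIP libraries. Eya2 was close to this limit, with an upper end of a 1.98-fold gain. Its log2 estimate ran from -0.090 to 0.61 when a library was left out. The V5 libraries spread more than the wild-type libraries in 6 of the 8 genes, by the SD of their CPM, and in 68.9% of genes with at least 70 counts. The library that was highest was V5 replicate 2 in Eya2, Eya4 and Pax1 and V5 replicate 1 in Pax3 and Pax9.

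**Figure D3:**
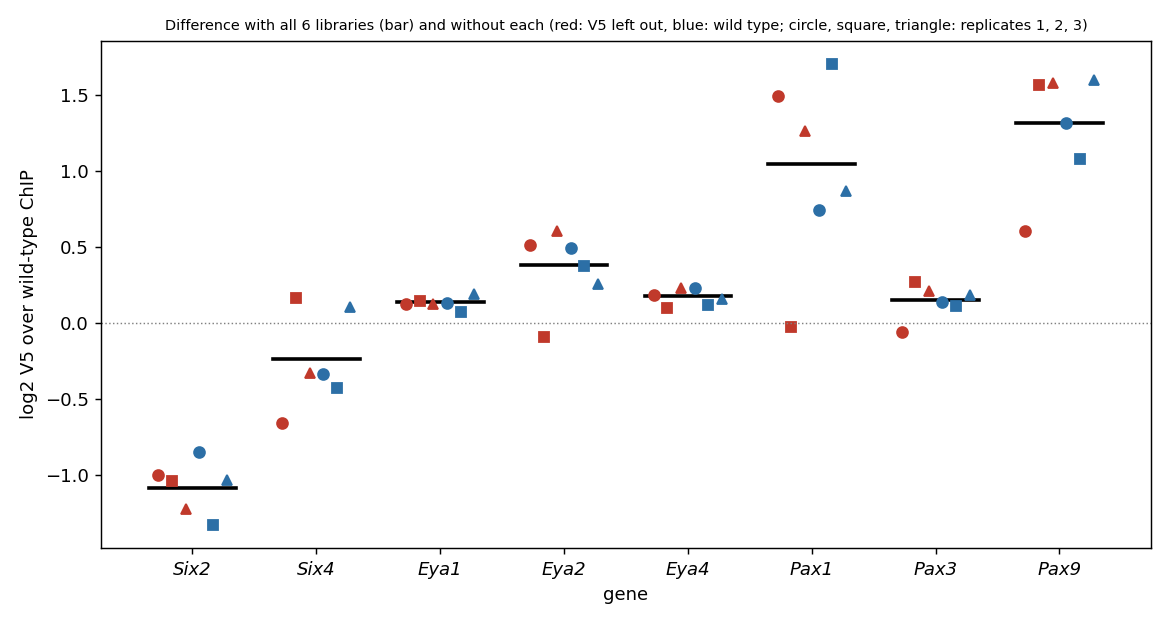
Log2 difference between V5 and wild-type ChIP (vertical axis) for each gene with all 6 libraries (bar) and with each library left out (red for V5, blue for wild type; circle, square and triangle for replicates 1, 2 and 3); values are edgeR estimates, except for Six2 and Pax1, which show the log2 ratio of mean CPM. Leaving out V5 replicate 2 takes Eya2 from 0.39 to -0.090 and Pax1 from 1.05 to -0.023, and leaving out V5 replicate 1 takes Pax9 from 1.32 to 0.61.

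Set against the input, 3 of the 4 genes with a deposited length over 50 kb were higher in all ChIP libraries, with and without the tag. The exception was Eya2, with 116334 bp counted, which lay below the input in 4 of the 6 ChIP libraries. In Eya1, Eya4 and Pax3 all 6 ChIP libraries lay above the single input, which 11.6% of genes with at least 70 counts did and 24.8% of those with a deposited length over 50 kb, a limit chosen after these values were seen. The log2 ratio of mean CPM to the input was 0.80 for V5 and 0.65 for wild type in Eya4, 0.59 and 0.48 in Eya1, and 0.54 and 0.41 in Pax3, beside medians over all genes of 0.04 and 0.00. Both ratios share the input, which has no replicate, so they have no test. The values of both groups stood on the same side of the input they share in these 3 genes, and the cause was not tested.

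The other 5 genes did not move as a group against the input. Pax9 stood at 1.64 in V5 and 0.35 in wild type, and its single V5 libraries ranged from 0.92 to 2.43. Pax1 stood at 0.42 and -0.59, with V5 libraries from -1.18 to 1.43. Eya2 stood at 0.29 and -0.06, and at -0.19 in V5 without replicate 2. Six4 stood at -0.73 and -0.49. Six2 stood at -1.12 in V5 and -0.16 in wild type, and its V5 libraries lay close together between -1.19 and -1.005. With a prior count of 5 in place of 0.5 the Six2 values became -0.28 and 0.14. From summed counts the Six2 ratio in V5 was -1.17, with an exact binomial 95% interval of -2.18 to -0.20 that covers counting error only.

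**Figure D4:**
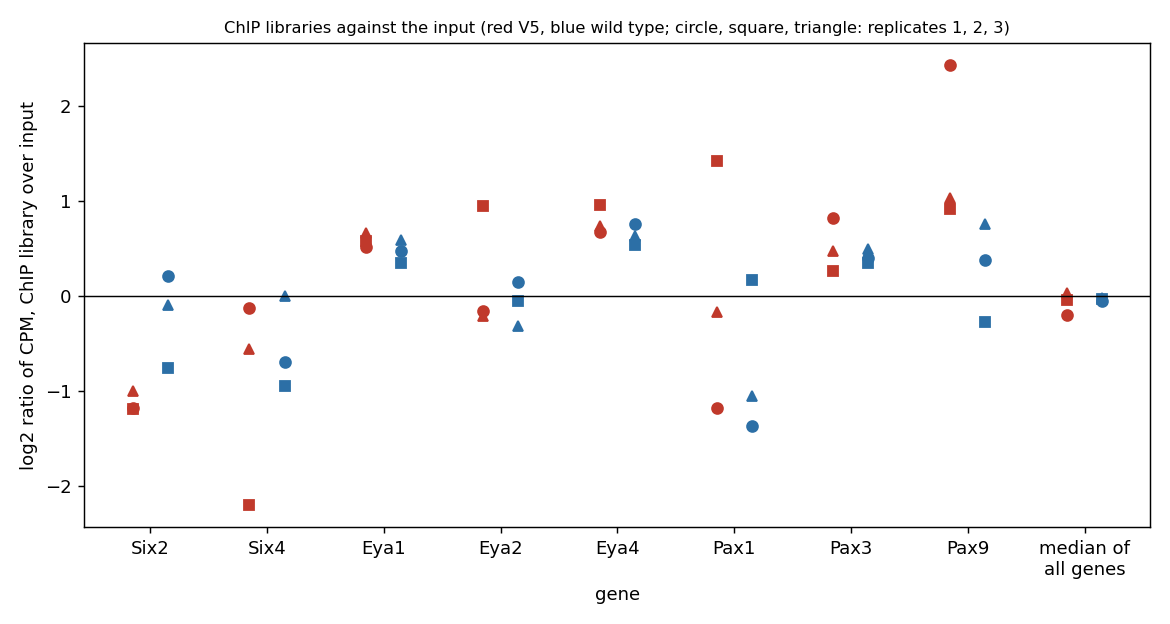
Log2 ratio of CPM in each ChIP library to the input (vertical axis) for the 8 genes and the median of all genes with at least 70 counts; red is V5 and blue wild type, and circles, squares and triangles are replicates 1, 2 and 3. Eya1, Eya4 and Pax3 lie above 0 in all 6 libraries, and the V5 values of Six2 lie between -1.19 and -1.005.

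Per length of counted DNA the 8 genes ranged in the input from 0.597 CPM per kilobase for Eya1 to 1.73 for Six2. In wild type the highest mean density was that of Six2, at 1.498 ± 0.509, followed by Eya4 at 1.09 ± 0.0865 and Six4 at 0.972 ± 0.363, and the lowest was that of Pax1, at 0.433 ± 0.277 (SD, n = 3). In V5 the order differed, with Pax9 highest at 2.06 ± 1.32, Eya4 at 1.21 ± 0.125, Eya2 at 1.17 ± 0.579 and Six2 lowest at 0.707 ± 0.116 (SD, n = 3). The remaining V5 densities, of Six4, Eya1, Pax1 and Pax3, ran from 0.816 to 0.988. Their SDs were 0.496, 0.0463, 0.833 and 0.197 in the same order. Among all 27179 genes the density of Pax9 stood at percentile 95.03 in V5, 51.6 in wild type and 43.0 in the input, and that of Six2 at 43.2, 92.9 and 92.6. Densities of all genes had medians between 0.498 and 0.868 in the 7 libraries.

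**Figure D5:**
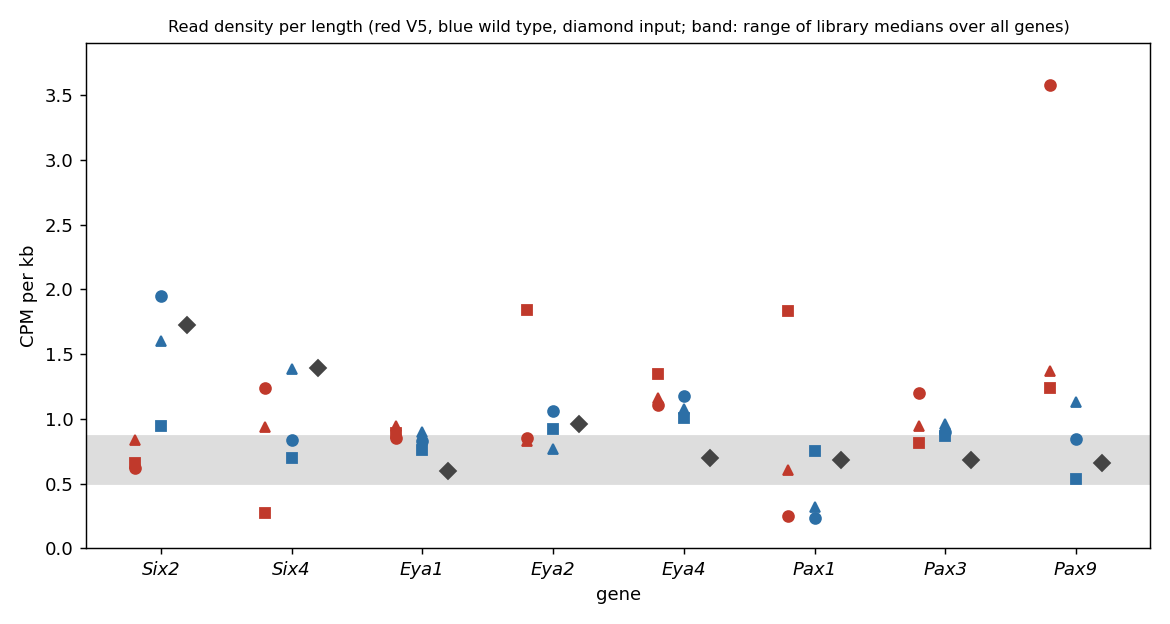
CPM per kilobase of deposited length (linear axis) of the 8 genes in each library; red is V5, blue is wild type, the diamond is the input, circles, squares and triangles are replicates 1, 2 and 3, and the grey band is the range of the library medians over all genes (0.498 to 0.868). Single V5 libraries stand out in Pax9, Eya2 and Pax1.

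Relatives of the 8 genes did not pass either. Of 11 tested genes in a list of the other Six- and Eya-family genes with DACH, SOBP and TLE cofactors, 7 were positive, the median log2 fold change was 0.25, and 0 passed with edgeR, with 0 at an unadjusted p under 0.05. Tle4, a co-repressor, stood at -0.34 (SE 0.22) with all V5 libraries below all wild-type libraries, where 5.27% of tested genes showed this separation. Six3, which lies 36.5 kb from Six2, stood at 0.35 (SE 0.95).

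All 5 tested genes of the list of other Pax genes were positive, the median log2 fold change was 0.54, and 0 passed with edgeR or had an unadjusted p under 0.05. With limma-voom 4 of the 5 were positive. Pax7, which marks muscle stem cells and neural crest, led by p with 0.54 (SE 0.31, edgeR adjusted p = 0.978), from 130, 174 and 71.5 CPM in V5 against 72.2, 113 and 77.5 in wild type. V5 replicate 3 was thus below all 3 wild-type libraries. Pax5, a regulator of B cells and the midbrain, stood at 0.76 (SE 0.47) and rested on V5 replicate 1, which had 368 CPM beside 110 and 123 in the other V5 libraries and 98.6 to 142 in wild type. The median of the 5 was 0.31 without V5 replicate 1 and 0.23 without V5 replicate 2.

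Partners in the arches and pouches had 3 of 7 tested genes positive and a median of -0.29, and 0 passed with edgeR. At an unadjusted p under 0.05 there was 1 gene, where 4.19% of all tested genes passed that mark. That gene was Tbx1, a T-box regulator of the pharyngeal apparatus, at 2.32 (SE 0.78, edgeR adjusted p = 0.978), and Meox2, a homeobox gene of the somites, stood at -0.71 (SE 0.38). Without a filter on low counts 6 of 10 genes of this list were positive and its median was 0.34. Of 6 tested genes known to act downstream of SIX-family, EYA or PAX proteins, 4 were positive with a median of 0.09, and 0 passed with edgeR or had an unadjusted p under 0.05. Sall1, a zinc finger gene of the kidney, led with 0.91 (SE 0.73), and Gdnf, the ligand that starts the growth of the ureteric bud, stood at 0.36 (SE 0.62). DESeq2, limma-voom and the likelihood ratio test also called 0 genes in each of the 4 lists.

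The genes whose values over the 7 libraries were nearest to those of Pax9, Eya1, Eya4, Pax3 and Six4 were found by the root mean square difference of log2 CPM after centring each gene on its mean. For Pax9 this was Stmnd1, with a difference of 0.20 beside a median of 0.98 over all genes, and it had 88.0 CPM in V5 replicate 1 and 18.1 to 32.5 in the other ChIP libraries. The nearest genes to Eya1, Eya4, Pax3 and Six4 were Rftn1 (0.05), Rnf144a (0.07), Ptprm (0.05) and Noct (0.18). Each is the closest of all tested genes outside the 8, and the likeness is a description of these libraries.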

How the data were processed

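Per the file headers, the authors deposited whole-number read counts for each gene beside its length, and the 7 single-library files repeat the columns of the whole table. The submitters' processing notes name bcl2fastq, featureCounts, MACS and the build mm10; for the aligner, the treatment of duplicate reads and the settings of the counting, the answer is not given in the sources used here. No peak list was used here. Symbols (25275 of 27179 identifiers), coordinates and promoters are from RefSeq GRCm38.p6, matched by gene identifier.

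V5 and wild-type ChIP counts entered a robust quasi-likelihood fit of edgeR 4.0.16 (R 4.3.3) with TMM factors, after filterByExpr at a minimum of 10 counts. Its two-sided p-values were adjusted over the 14575 genes kept, by Benjamini and Hochberg, with a threshold of 0.05. The script was tested on simulated data. Standard errors and 95% intervals were derived from the F statistic. TMM factors ran from 0.928 to 1.04. Ratios to the input used a prior count of 0.5 and the 16736 genes with at least 70 counts. Poisson and binomial intervals cover counting error only. Alternatives used limma 3.58.1 and DESeq2 1.42.0, other scalings, no filter, a replicate block and leaving out each library.

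The 8 genes and the lists were chosen with earlier results of these data known. The text names all 8 genes, the 2 genes of smallest p in each list with Pax7 and Tbx1, genes that neighbour or overlap a member, and the nearest gene by profile; items withheld from the text are not reported here. Six3 was named as a neighbour. No column was left without a sample.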

Additional observations from a re-analysis of the deposited data

How the results depend on the processing

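None of the 8 genes passed the threshold under any of the alternatives run. The count of all genes past it was 0 with edgeR's quasi-likelihood test and stayed 0 with DESeq2 size factors, library totals and DESeq2 (1048 genes at an unadjusted p under 0.05). It was 9 without a filter on low counts, 4 with limma-voom, 1 with the likelihood ratio test and 1 with the replicate block, and 0 to 2 when a library was left out. The cause was not tested. Of 48 fits of a member gene under another tool, scaling, filter or block, 0 changed direction, and of 48 that left out a library 5 did. Leaving out a library gave ranges of -0.65 to 0.16 in Six4, -0.090 to 0.61 in Eya2, -0.023 to 1.71 in Pax1 and -0.058 to 0.27 in Pax3. With a prior count of 5 the log2 ratio of Six2 in V5 to the input was -0.28, and the cause was not tested. Six2 and Pax1, below the filter, have no value under limma-voom, the likelihood ratio test or the block. Whether same-numbered libraries were handled together is not stated in the labels. Deviations of same-numbered libraries from their group means correlated at 0.01, 0.01 and 0.06 over genes, and those of the other pairs at -0.05 to 0.02. Correlations this near 0 cannot decide whether the libraries were paired. Six2, Pax1 and Six4 had the fewest counts of the 8 genes, with 47, 64 and 128 over the 6 ChIP libraries.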
